A study of Gallus gallus with 18 samples.

Results

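Enzymes of cholesterol synthesis were followed in brain, liver and leg muscle of chickens under acute heat. The 8 genes were HMGCS1, IDI1, FDPS, SQLE, LSS, CYP51A1, NSDHL and HSD17B7. These genes and the lists of related genes below were chosen by name, with earlier results of these data known. Every probe set annotated to only 1 of the 8 symbols was used. This gave 11 of the 38439 probe sets that are not array controls, and they cover 7 of the 8 genes. No probe set used here carries the symbol IDI1 alone, so IDI1 was not analysed here. LSS has 3 probe sets, SQLE and HSD17B7 have 2 each, and the other 4 genes have 1 each.

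Biotinylated cRNA made from total RNA was hybridised to 18 Affymetrix chicken arrays, 3 per group in 6 groups. Control birds stayed at 28 °C (±1 °C) and carry the time label T0. Heated birds were held at 40 °C (±1 °C) for 3 h and carry the label T3, so the time of sampling went with heat. All birds had first been kept at 28 °C for 8 days with free access to water and food. The labels give 24 birds, 12 male and 12 female, and call the arrays of a group biological replicates. The sources used here give neither the strain nor the sex of the birds on each array, and they do not say whether birds were pooled. The brain samples are labelled as cerebral cortex.

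Cholesterol is built from acetyl-CoA. ACAT2 joins acetyl-CoA units, HMGCS1 makes HMG-CoA, and HMG-CoA reductase turns it into mevalonate, the step that limits the rate. MVK, PMVK and MVD convert mevalonate to isopentenyl diphosphate, IDI1 isomerises that molecule, FDPS joins such units to farnesyl diphosphate, and FDFT1 makes squalene. SQLE oxidises squalene, LSS closes the ring to lanosterol, and CYP51A1, NSDHL, HSD17B7 and DHCR7 trim lanosterol to cholesterol. The transcription factor SREBP2, encoded by SREBF2, switches these genes on together when cell sterol is low, after SCAP has carried it out of the endoplasmic reticulum. The liver is the main site of synthesis in the bird, and the brain makes its own cholesterol because that of the blood does not cross into it.

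Values are deposited intensities on a linear scale. Each probe set has its own affinity, so levels are compared for 1 probe set across groups and not between genes. Array medians ran from 79.6 to 99.1. The bacterial trp control probe sets, which show background, read 6.06 to 97.6. Their highest reading serves below as a mark of background and not as a sharp limit of detection. Within a group, any pair of arrays correlated at 0.976 to 0.993. Neuron markers summed to 0.600% to 2.74% of their brain level in liver and 1.18% to 5.93% in muscle, and skeletal muscle markers to 0.641% to 3.41% of their muscle level outside muscle. Over 12 hepatocyte markers, the median level was 38.3% of the liver control level on brain heat 1 and 34.7% on muscle heat 3, against 0.703% to 2.79% on the other brain arrays and 1.57% to 9.38% on the other muscle arrays. No marker was listed at 0. In bulk tissue, fewer cells of a type and less RNA per cell cannot be told apart.

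Without heat, each of the 6 member genes tested was higher in liver and in brain than in muscle by its most intense probe set. Tests were made with limma on log2(intensity + 16), with Benjamini-Hochberg adjustment over all probe sets tested and a call at an adjusted p below 0.05. For comparison, 33.6% of all probe sets tested were called higher in liver and 40.6% higher in brain than in muscle. The second LSS probe set went the other way, lower in brain than in muscle (log2 -1.13, SE 0.14, limma adjusted p = 1.52e-06). It read 61.3 to 72.3 on the brain controls, near the trp readings. Between liver and muscle it was not called (log2 -0.27, SE 0.14, limma adjusted p = 0.11). NSDHL, which takes part in removing methyl groups from lanosterol, showed one of the wider gaps. It read 1014, 1385 and 1974 on the liver controls, 669, 572 and 875 on the brain controls and 82.4, 130 and 136 on the muscle controls. Its log2 difference was 3.53 (SE 0.23, limma adjusted p = 7.91e-10) for liver over muscle and 2.45 (SE 0.23, limma adjusted p = 3.66e-08) for brain over muscle. FDPS showed the narrowest gap of these genes, 0.54 for liver over muscle (SE 0.22, limma adjusted p = 0.039), and that call was lost in 4 of 6 fits without 1 array.

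Between liver and brain the order depended on the gene. HMGCS1, NSDHL and LSS were higher in control liver, by log2 differences of 1.34 (SE 0.29, limma adjusted p = 5.00e-04), 1.08 (SE 0.23, limma adjusted p = 4.35e-04) and 0.90 (SE 0.27, limma adjusted p = 0.0057). SQLE was lower in liver by a log2 difference of -1.32 (SE 0.38, limma adjusted p = 0.0046). FDPS (-0.26, limma adjusted p = 0.30) and HSD17B7 (-0.21, limma adjusted p = 0.53) did not pass the test. The probe sets of HSD17B7 disagreed, since the second was higher in liver (0.72, SE 0.18, limma adjusted p = 0.0018). Of all probe sets tested, 33.4% were called higher and 39.4% lower in liver.

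**Figure D1:**
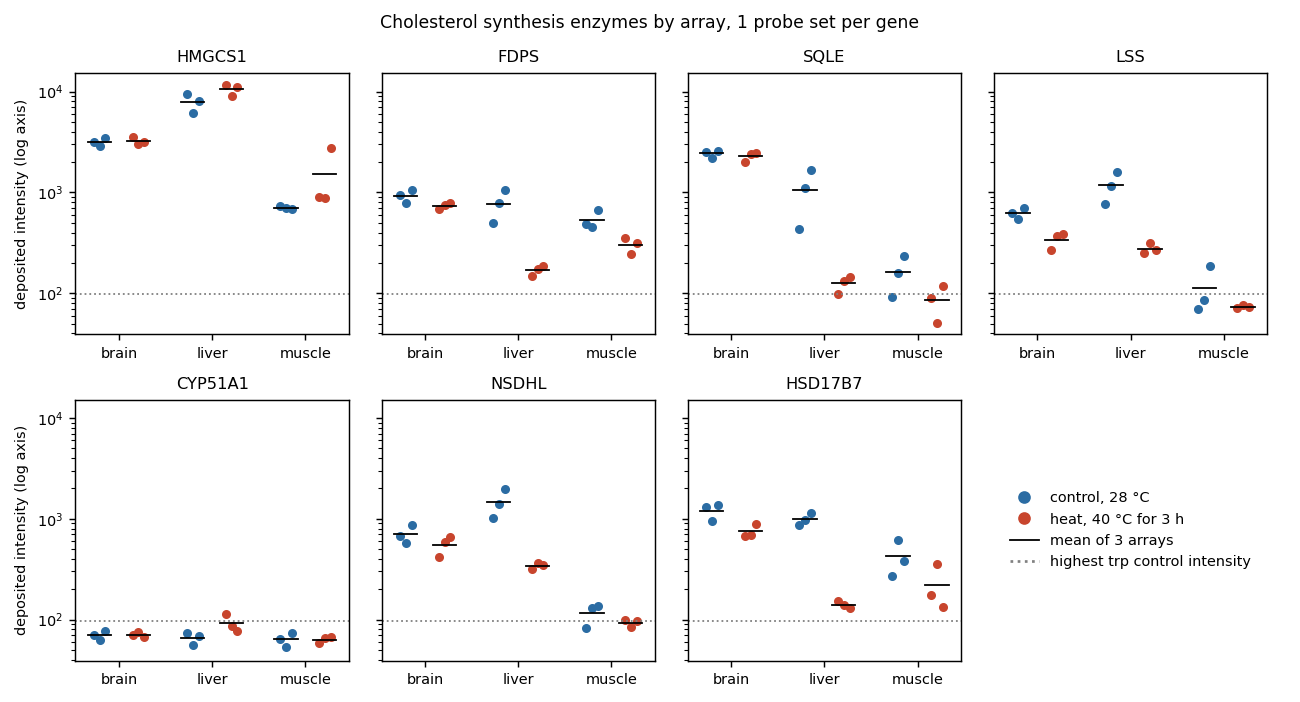
Deposited intensity (log axis) of 1 probe set for each of the 7 measured genes on the 3 control (blue) and 3 heat (red) arrays of brain, liver and muscle, with the mean of 3 arrays as a bar and the highest trp control intensity, 97.6, as a dotted line. In liver the heat arrays of FDPS, SQLE, LSS, NSDHL and HSD17B7 lie below all controls, while HMGCS1 does not and CYP51A1 stays near the dotted line in every group.

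In heated liver, 5 of the 6 member genes tested fell, by 4.19-fold to 7.06-fold, and none rose. They were FDPS, SQLE, LSS, NSDHL and HSD17B7, that is every tested member past the mevalonate stage, while HMGCS1 before it was not called. For comparison, limma called 6.13% of the 19220 liver probe sets lower and 6.94% higher. By probe set, 8 of the 10 tested members were called lower, and these 8 were each at least 2-fold lower, against 0.822% of all liver probe sets. Of these 8, the second SQLE and the third LSS probe set had heat values within the trp readings. The heat arrays of all 8 also lay below all control arrays, which held for 15.0% of all liver probe sets. Those of CYP51A1 lay above all controls, as for 21.8%.

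FDPS, the branch point that also feeds protein prenylation and ubiquinone, read 493, 777 and 1046 on the liver controls and 150, 175 and 184 on the heat arrays. Every heat value lay below every control, and the lowest control was 2.67 times the highest heat array. The gene fell 4.29-fold (log2 -2.10, SE 0.24, limma adjusted p = 0.0044), the 10th lowest change among the 19220 liver probe sets.

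SQLE, which oxidises squalene and is a slow step of the pathway, read 434, 1109 and 1657 on the liver controls and 97.5, 132 and 146 on the heat arrays. The groups did not overlap, although the controls themselves spread 3.82-fold and the lowest heat value sat at the level of the highest trp reading. The fall was 7.06-fold (log2 -2.82, SE 0.41, limma adjusted p = 0.0079), the 3rd lowest change in liver. The second SQLE probe set read 98.5, 245 and 334 on the controls and 39.8, 63.5 and 59.7 on the heat arrays, all of the latter within the range of the trp readings. The size of its fall is therefore not measured, and the fitted log2 change of -1.67 (SE 0.36, limma adjusted p = 0.023) was a call lost in 4 of 6 fits without 1 array (highest adjusted p 0.089).

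LSS, the cyclase that makes lanosterol, read 769, 1163 and 1611 on the liver controls and 249, 315 and 269 on the heat arrays with the probe set of highest intensity. This separation gave a 4.19-fold fall (log2 -2.07, SE 0.23, limma adjusted p = 0.0044). The third LSS probe set moved with it, from 214 to 308 on the controls to 90.6 or less on the heat arrays (log2 -1.44, SE 0.15, limma adjusted p = 0.0038). Its heat values lay within the liver trp readings of up to 97.6, so the size of its fall is not measured. The second LSS probe set did not move with the first and the third. It read 154, 122 and 124 on the controls and 106, 157 and 141 on the heat arrays, so the groups overlapped (log2 -0.02, SE 0.15, limma adjusted p = 0.95). Across the 18 arrays the first and the third correlated at r = 0.97, and this probe set at -0.53 and -0.50 with them, with its highest values in muscle. Whether it reads another transcript was not tested.

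NSDHL read 1014, 1385 and 1974 on the liver controls and 320, 365 and 344 on the heat arrays. The heat arrays lay within 1.14-fold of each other and well under the controls, a 4.27-fold fall (log2 -2.09, SE 0.22, limma adjusted p = 0.0039). HSD17B7, which reduces the sterol ketone that NSDHL leaves, read 860, 966 and 1141 on the controls and 153, 138 and 131 on the heat arrays. Among these genes its groups stood farthest apart, with the lowest control 5.61 times the highest heat array. It fell 6.76-fold (log2 -2.76, SE 0.14, limma adjusted p = 9.62e-05), the 4th lowest change in liver. The other HSD17B7 probe set fell too, from 445, 530 and 786 to 135, 153 and 141 (log2 -1.95, SE 0.20, limma adjusted p = 0.0035).

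**Figure D2:**
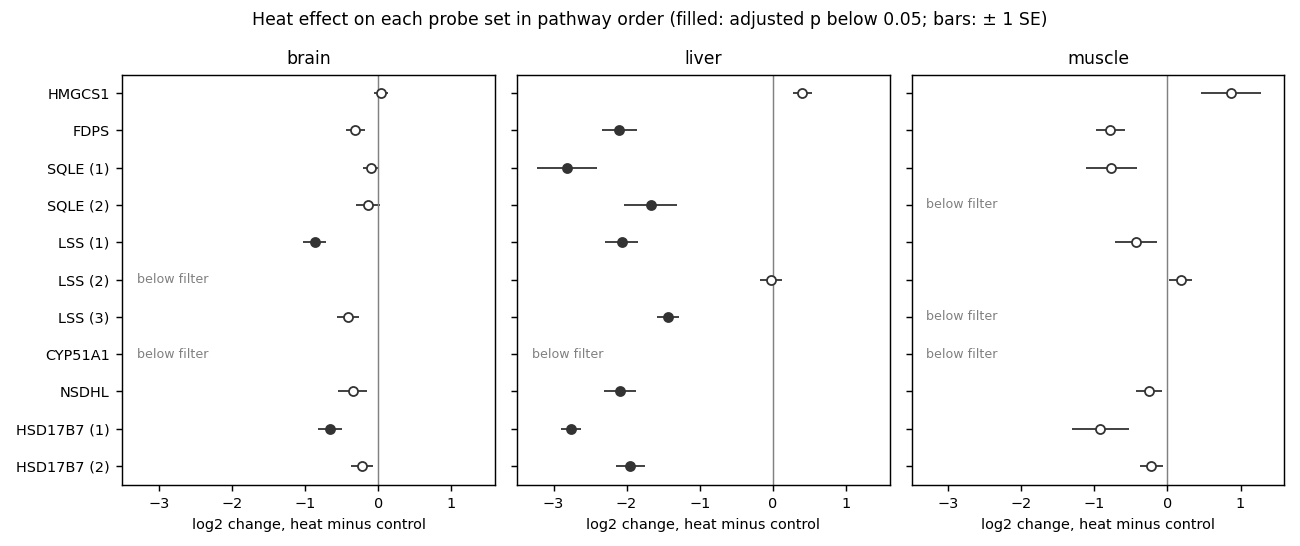
Log2 change with heat (heat minus control, bars ± 1 SE) of the 11 member probe sets in pathway order, those of a gene numbered by falling intensity, in brain, liver and muscle, filled where the limma adjusted p is below 0.05. Of the filled points 8 are in liver and 2 in brain, with none in muscle, and the lowest is SQLE in liver at -2.82.

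In the 8 probe sets that fell in liver, the controls spread more than the heat arrays. Each had its lowest control value on control 1 and its highest on control 3, and the ratio between them ran from 1.33 for HSD17B7 to 3.82 for SQLE. On the heat arrays the highest value was 1.14 to 1.59 times the lowest. Over whole arrays the pairwise correlations were close, at 0.985 to 0.992 among controls and 0.984 to 0.989 among heat arrays. The actin 3'/5' ratio, a measure of RNA integrity, was 1.42, 1.64 and 2.21 on liver controls 1 to 3 and 2.77, 2.17 and 1.52 on heat 1 to 3, so its ranges overlapped. On the controls this ratio rose in the same order as the 8 probe sets. The EF1a 3'/5' ratio, also a measure of RNA integrity, did not, at 1.21, 1.43 and 1.39 on controls 1 to 3. Hepatocyte markers summed to 91.2% to 106% of their mean control level on the liver controls and to 94.0% to 111% on the heat arrays. Neuron markers summed to 0.600% to 0.624% of their brain level on the liver controls and to 1.14% to 2.74% on the heat arrays, without overlap. The 2 red blood cell markers on the array, of 6 listed, summed to an intensity of 4698, 10238 and 12808 on controls 1 to 3, the same order as the 8 probe sets, and to 6262 to 6604 on the heat arrays. Astrocyte and oligodendrocyte marker sums also rose in that order on the liver controls, while those of the other marker lists did not. An order over 3 controls cannot decide whether such values are linked. The part of the actin ratio and of these markers in the falls was not tested. The calls of the 5 genes held in all 80 alternative fits (16 settings), with a highest adjusted p of 0.042 for SQLE without liver heat 1.

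HMGCS1, the member that acts before mevalonate, read 9412, 6205 and 8110 on the liver controls and 11617, 9091 and 11175 on the heat arrays. The ranges overlapped, and the log2 change of +0.40 was not called (SE 0.13, limma adjusted p = 0.080). It was called without liver control 1 (log2 0.51, limma adjusted p = 0.044). The probe set is of the type that can read more than 1 transcript, as are the 3 of LSS and the second of SQLE, and this was not tested. CYP51A1, the lanosterol demethylase, stayed under the intensity filter in each tissue. It read 73.1, 56.0 and 69.2 on the liver controls and 112, 86.6 and 77.0 on the heat arrays, close to the trp readings. With no filter its log2 change in liver was +0.38 (SE 0.14, limma adjusted p = 0.16).

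In heated brain, 2 of the 6 member genes tested fell, LSS and HSD17B7, and none rose. Among all brain probe sets, 5.74% were called lower and 6.55% higher. LSS read 632, 551 and 709 on the controls and 268, 366 and 384 on the heat arrays, with no overlap. Its fall was 1.83-fold (log2 -0.87, SE 0.16, limma adjusted p = 0.024). The third LSS probe set read 144, 149 and 177 against 88.2, 119 and 137, in the same direction without a call (log2 -0.41, limma adjusted p = 0.11). HSD17B7 read 1303, 957 and 1359 on the controls and 672, 694 and 892 on the heat arrays, again without overlap, and fell 1.58-fold (log2 -0.66, SE 0.16, limma adjusted p = 0.039). Its other probe set was not called (log2 -0.22, limma adjusted p = 0.34).

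Both brain calls were lost in some fits without 1 array, while the changes stayed below 0. Over the 6 such fits LSS changed by -0.97 to -0.72 and HSD17B7 by -0.82 to -0.57 on the log2 scale. Calls over all brain probe sets went from 2361 to 11 without control 1 and to 4434 without heat 1. The calls of LSS and HSD17B7 were each lost in 3 of 6 fits without 1 array, namely without control 1 (limma adjusted p = 0.084 and 0.13), control 3 (0.10 and 0.14) or heat 2 (0.10 and 0.15). The EF1a 3'/5' ratio, another measure of RNA integrity, was 1.47 to 1.56 on the brain controls against 1.32 and 1.36 on heat 2 and 3, and heat 1 also lay below all controls. The actin 3'/5' ratio overlapped, at 1.34, 1.39 and 1.33 on the controls and 1.35, 1.17 and 1.08 on heat 1 to 3. Skeletal muscle markers summed to 0.641% to 0.830% of their muscle level on the brain controls and to 1.44% to 3.41% on the heat arrays. The groups overlapped neither in the EF1a ratio nor in the skeletal muscle markers. Of the 4 oligodendrocyte markers on the array, CNP read 1156, 1145 and 2162 on the controls and 898, 520 and 713 on the heat arrays. SOX10 read 550, 515 and 782 against 459, 315 and 367, also without overlap, while MBP and MOG overlapped. Together the 4 summed to 84.9% to 118% of their mean control level on the controls and to 83.5% to 103% on the heat arrays. The part of these values in the falls was not tested. In the fit over 18 arrays, LSS (limma adjusted p = 0.053) and HSD17B7 (limma adjusted p = 0.16) were not called in brain, nor with the mean over the probe sets of each gene. Brain heat 1 had the high hepatocyte markers, and without it LSS changed by -0.72 (limma adjusted p = 0.0047) and HSD17B7 by -0.59 (limma adjusted p = 0.029).

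The other members were not called in brain. Of the 6 tested member genes, 5 had a change below 0, and the median of the 6 was -0.33 against 0.00 for all brain probe sets. SQLE, at its highest level of any tissue, read 2527, 2216 and 2577 on the brain controls and 1993, 2408 and 2454 on the heat arrays, with overlap (log2 -0.10, limma adjusted p = 0.58). FDPS read 947, 782 and 1065 against 689, 755 and 781, just without overlap and not called (log2 -0.31, limma adjusted p = 0.14). The heat arrays of 4 member probe sets lay below all controls, against 18.2% of all brain probe sets. NSDHL (log2 -0.35, limma adjusted p = 0.26) and HMGCS1 (log2 0.04, limma adjusted p = 0.80) were not called, and CYP51A1 lay under the filter at 63.1 to 76.3 on the 6 arrays.

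In heated muscle none of the 6 member genes tested was called with the muscle arrays alone. Of the 6, 5 had a change below 0, and the median of the 6 was -0.60 against 0.01 for all muscle probe sets. The fit over the arrays of all tissues called 1 member gene lower in muscle. With the muscle arrays alone, limma called only 1 of the 19220 muscle probe sets, 0.00520% of them. An unadjusted p below 0.05, in either direction, was reached by 16.1%. At that unadjusted level 2 member genes were lower by their most intense probe sets, FDPS and HSD17B7. FDPS read 483, 450 and 663 on the controls and 351, 244 and 312 on the heat arrays, without overlap (log2 -0.78, SE 0.20, limma adjusted p = 0.15), and 11.7% of all muscle probe sets had the heat arrays below all controls. HSD17B7 read 271, 617 and 380 against 174, 359 and 133, with overlap (log2 -0.92, SE 0.39, limma adjusted p = 0.30). Its second probe set overlapped too and did not reach that unadjusted level (log2 -0.22, SE 0.16, limma unadjusted p = 0.21, adjusted p = 0.54). SQLE read 92.2, 157 and 236 against 89.0, 51.1 and 118, near background and with overlap (log2 -0.77, SE 0.35, limma adjusted p = 0.32). LSS (log2 -0.43, limma adjusted p = 0.51) read 69.6 to 185 on the controls and 71.3 to 76.3 on the heat arrays, and NSDHL (log2 -0.25, limma adjusted p = 0.54) read 83.6 to 99.8 on the heat arrays, so both left little room above background.

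HMGCS1 was the member with higher values in heated muscle. It read 730, 704 and 682 on the controls and 906, 874 and 2755 on the heat arrays, so every heat array lay above every control, as for 10.1% of all muscle probe sets. The log2 change of 0.87 was not called (SE 0.41, limma adjusted p = 0.35) and was 0.33 without heat 3. Muscle heat 3 was also the array with 34.7% for the hepatocyte markers, against 9.24% and 8.11% on heat 1 and 2. ACAT2, which acts just before HMGCS1, stood out on the same array, with 416, 362 and 437 on the controls and 374, 343 and 1249 on the heat arrays. Both genes are more abundant in liver than in muscle by their own probe sets. The part of liver transcripts in these values was not tested.

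**Figure D3:**
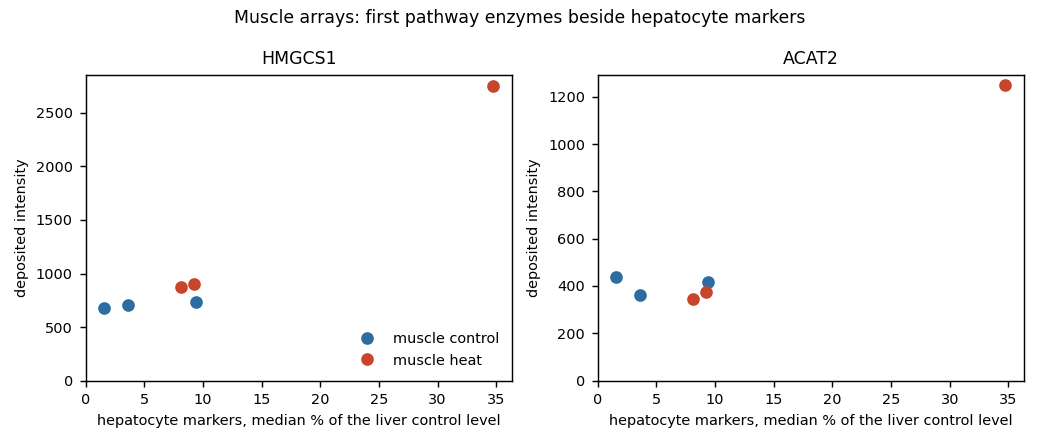
Deposited intensity of HMGCS1 (left) and ACAT2 (right) on the 6 muscle arrays against the median level of 12 hepatocyte markers, in percent of the liver control level. Muscle heat 3, at 34.7%, holds the highest value of both genes, 2755 and 1249, and the other 5 arrays lie below 10% with HMGCS1 between 682 and 906.

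The change with heat differed between liver and brain for 4 of the 6 member genes tested, each lower in liver. The difference in log2 change was -1.79 for FDPS (SE 0.31, limma adjusted p = 0.0091), -2.72 for SQLE (SE 0.53, limma adjusted p = 0.018), -1.74 for NSDHL (SE 0.32, limma adjusted p = 0.014) and -2.09 for HSD17B7 (SE 0.41, limma adjusted p = 0.018). Only 0.921% of all probe sets tested were called lower in this interaction. LSS, which also fell in brain, gave -1.19 (SE 0.38, limma adjusted p = 0.13) with its first probe set and -1.03 (SE 0.20, limma adjusted p = 0.019) with the third. The third read within the trp readings in heated liver, so its -1.03 does not measure the size of the difference. HMGCS1 gave +0.35 (SE 0.41, limma adjusted p = 0.74). In the 12 fits without 1 array FDPS and NSDHL kept their calls. The SQLE call was lost in 3 of them (highest adjusted p 0.054), that of the first HSD17B7 probe set in 2 (0.058) and that of the third LSS probe set in 5 (0.061). The second HSD17B7 probe set (-1.73, SE 0.26, limma adjusted p = 0.0036) kept its call in each (highest adjusted p 0.016). Without brain control 2, only FDPS and NSDHL of the 6 genes were called by their most intense probe sets.

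Between liver and muscle 3 of 6 member genes differed, against 0.484% of all probe sets called lower. They were NSDHL (-1.84, SE 0.32, limma adjusted p = 0.012), HSD17B7 (-1.84, SE 0.41, limma adjusted p = 0.045) and LSS (-1.64, SE 0.38, limma adjusted p = 0.0495). The second HSD17B7 probe set gave -1.73 (SE 0.26, limma adjusted p = 0.0038), a call kept in all 12 fits without 1 array (highest adjusted p 0.013). The LSS call was lost in 10 of 12 fits without 1 array and that of the first HSD17B7 probe set in 9 of 12. NSDHL kept its call in each and was the 1 gene called by its most intense probe set in 5 other settings. On the muscle controls NSDHL read 82.4 to 136, LSS 69.6 to 185 and the second HSD17B7 probe set 132 to 179. The muscle trp readings reached 60.6, so a fall in muscle as large as in liver could not have been seen in full. These differences therefore do not compare 2 fully measured changes. FDPS (-1.32, SE 0.31, limma adjusted p = 0.0513) and SQLE (-2.05, SE 0.53, limma adjusted p = 0.082) missed the threshold. Between brain and muscle no member gene differed with limma, and 0.341% of all probe sets were called. None of the 6 had an unadjusted p below 0.05, against 11.5% of all probe sets. The tissue contrasts share arrays with each other and with the heat comparisons of each tissue.

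Set side by side, the 6 group means changed order with heat. HSD17B7 averaged 1206 in control brain and 989 in control liver, whose ranges overlapped, then 753 in heated brain, 423 in control muscle, 222 in heated muscle and 141 in heated liver. These are values of the first HSD17B7 probe set. By the second, heated muscle was lowest, at a mean of 130 against 143 in heated liver, with overlapping ranges. By the first, heated liver held the lowest mean, though its range of 131 to 153 met that of heated muscle at 133 to 359. FDPS likewise went from a mean of 772 ± 276 (SD, n = 3 arrays) in control liver to 150 to 184 in heated liver, under the 244 to 351 of heated muscle, and here the ranges did not meet. SQLE in heated liver, 125 ± 25.0 (SD, n = 3 arrays), overlapped control muscle at 162 ± 72.1 (SD, n = 3 arrays). LSS and NSDHL in heated liver, at means of 278 and 343, still lay above both muscle groups.

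The other enzymes of the pathway were read from 9 further genes that the array covers. In heated liver 6 of the 9 fell and none rose, against 6.13% of all liver probe sets called lower, with a list median of -0.66 against -0.03 for all liver probe sets. FDFT1, the squalene synthase between FDPS and SQLE, read 770, 1218 and 1329 on the controls and 289, 323 and 375 on the heat arrays, and fell 3.42-fold (log2 -1.77, SE 0.21, limma adjusted p = 0.0045). DHCR7, which makes the last reduction to cholesterol, read 692, 1006 and 1331 against 284, 344 and 299, a 3.29-fold fall (log2 -1.72, SE 0.21, limma adjusted p = 0.0054). In both genes the groups did not overlap, as in the members beside them. MSMO1, a sterol methyl oxidase, fell by 0.98 on the log2 scale (SE 0.18, limma adjusted p = 0.015), and MVD by 0.86 (SE 0.17, limma adjusted p = 0.019). PMVK (-0.66) and MVK (-0.50) fell as well, while SC5D (-0.52, limma adjusted p = 0.053), ACAT2 (0.20, limma adjusted p = 0.22) and LBR (-0.03) were not called. Without liver control 3, 2 of the 9 were called, while calls over all liver probe sets went from 2512 to 499.

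In pathway order the falls in liver were larger from FDPS to SQLE than at the earlier steps, a difference between genes that was not tested. ACAT2 and HMGCS1, before mevalonate, were not called, with positive log2 changes of 0.20 and 0.40. MVK, PMVK and MVD, which process mevalonate, changed by -0.50, -0.66 and -0.86, and FDPS, FDFT1 and SQLE by -2.10, -1.77 and -2.82. After SQLE the changes ran from -0.03 for LBR to -2.76 for HSD17B7, so their size did not keep to the order of steps. MVD read 117 to 155 on the liver heat arrays, not far above the trp readings. The difference from brain was called for DHCR7 (-1.61, limma adjusted p = 0.0087), FDFT1 (-1.56, limma adjusted p = 0.018) and MSMO1 (-1.06, limma adjusted p = 0.036). In brain SC5D, a desaturase near the end of the pathway, was the 1 of these 9 genes called (log2 -0.46, limma adjusted p = 0.036), against 5.74% of all brain probe sets called lower. None of the 9 was called in 5 of 6 fits without 1 brain array, and 2 were without heat 1. Calls over all brain probe sets ranged from 11 to 4434 in these fits, the latter without heat 1. In muscle none was called, and DHCR7 came nearest (log2 -0.83, SE 0.16, limma adjusted p = 0.11), from 202, 299 and 256 on the controls to 134, 127 and 140 on the heat arrays without overlap.

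**Figure D4:**
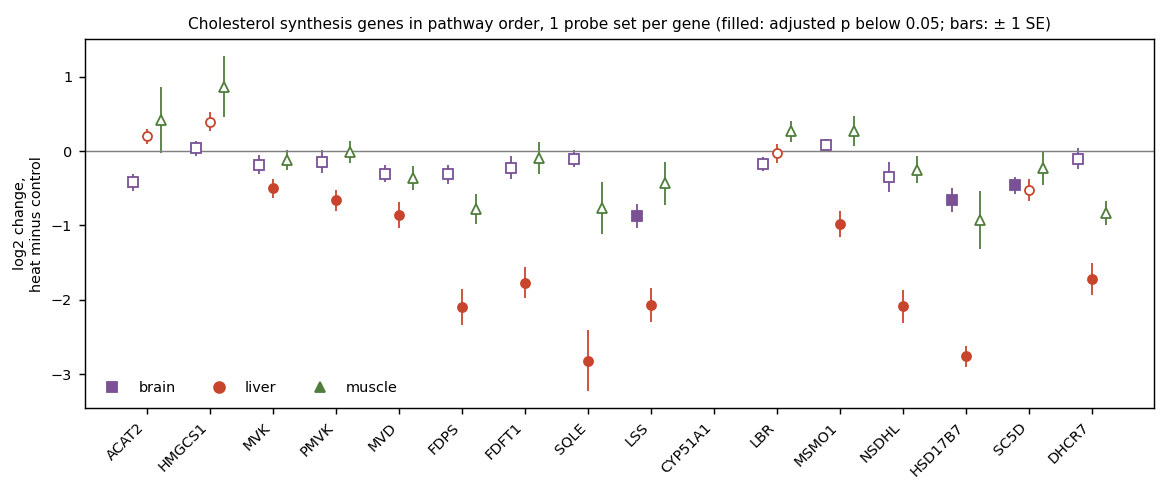
Log2 change with heat (heat minus control, bars ± 1 SE) of cholesterol synthesis genes in pathway order, 1 probe set per gene, in brain (squares), liver (circles) and muscle (triangles), filled where the limma adjusted p is below 0.05. The liver circles go from 0.40 at HMGCS1 to -2.82 at SQLE, and CYP51A1 has no point because it lay under the filter.

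Genes that sense and take up sterol were measured with 11 genes on the array. In liver 2 of the 10 tested fell and none rose, against 6.13% of all liver probe sets called lower. SREBF2, which encodes the activator of the pathway, read 1404, 1882 and 2022 on the liver controls and 443, 639 and 749 on the heat arrays, a 3.17-fold fall without overlap (log2 -1.66, SE 0.22, limma adjusted p = 0.0062). STARD4, a carrier of cholesterol between membranes, fell by 0.95 (SE 0.23, limma adjusted p = 0.030). SREBF1 (-0.43, limma adjusted p = 0.0514) and SCAP (-0.71, limma adjusted p = 0.054) lay just past the threshold. INSIG2 (0.62, limma adjusted p = 0.071) and INSIG1 (0.45, limma adjusted p = 0.12), which hold SCAP back in the endoplasmic reticulum, had positive changes that were not called.

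In brain 1 of the 11 was called, against 5.74% of all brain probe sets called lower. SCAP fell from 487, 350 and 330 on the brain controls to 212, 253 and 241 (log2 -0.67, limma adjusted p = 0.035). SREBF2 read 1463, 1221 and 1595 there and 801, 956 and 1158 on the heat arrays, without overlap and just short of a call (log2 -0.55, limma adjusted p = 0.0517). In muscle none was called with limma, with SREBF2 at -0.83 (limma adjusted p = 0.24) and MYLIP, which marks the LDL receptor for breakdown, at 0.54 (limma adjusted p = 0.20). The SREBF2 change was not called as different between any pair of tissues.

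Outside the main line few tested genes were called. Among 12 genes of sterol efflux and disposal, the number tested was 7 for brain, 10 for liver and 7 for muscle. Limma called 0 of those, and at an unadjusted p below 0.05 there were 1, 4 and 2. Of all probe sets tested, 31.9% in brain, 32.5% in liver and 16.1% in muscle were below that level. The others lay under the intensity filter. The nearest in liver were LCAT, which esterifies plasma cholesterol (-0.37, limma adjusted p = 0.065), CH25H, which makes 25-hydroxycholesterol (0.77, limma adjusted p = 0.086), and CYP27A1 of bile acid synthesis (-0.36, limma adjusted p = 0.086). Of 9 genes of the isoprenoid branches, PDSS1, which builds the tail of ubiquinone, fell in liver by 0.45 (limma adjusted p = 0.046), against 6.13% of all liver probe sets called lower. The others were not called in any tissue.

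The genes whose pattern over the 18 arrays was most like the members' mean were found by Pearson correlation among 11076 genes. They were IDI2 (r = 0.976), ERG28 (0.964), DHCR7 (0.956), CCDC61 (0.951), POR (0.946) and GSR (0.946). These values are a description, since the arrays fall into 3 tissues and share treatment. IDI2 carries the symbol of the paralog of IDI1 and has 3 probe sets. The most intense read 1138, 1406 and 2186 on the liver controls and 583, 539 and 472 on the heat arrays, without overlap, and all 3 fell in liver, by log2 changes of -1.34 to -1.62 (limma adjusted p from 0.0066 to 0.018). IDI2 was picked for following the members' mean on these same arrays, and that mean falls in heated liver. Its falls are therefore no independent result. In brain the most intense IDI2 probe set averaged 2124 and 1781 in control and heat, and in muscle 289 and 179, with no call in either. Among the members, NSDHL (r = 0.95) and LSS (0.93) followed the mean of the others most closely, HMGCS1 (0.40) less so, and CYP51A1 (0.04) hardly at all.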

How the data were processed

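Total RNA of brain, liver and leg muscle was measured on 18 arrays. The deposited values are linear intensities, 1 for each probe set on each array. Biotinylated cRNA was made from total RNA, per the labels' protocols. GCOS 1.4 is named without a role, per the submitters' processing notes. How intensities were summarised, background-corrected and scaled is not given in the sources used here. Precision is limited by the number of arrays. P-values measure the spread between these arrays, and the labels do not say whether birds were pooled.

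The table lists 38535 probe sets, and the 96 array controls were left out. Gene names come from a platform annotation, and 27168 probe sets carry 1 symbol, 177 several and 11094 none. Intensities were analysed as log2(intensity + 16), and fold changes are on that scale. Liver, whose trimmed array means differed by 1.12-fold, was quantile normalized. Brain (1.07) and muscle (1.04) kept the deposited scaling. Probe sets with a mean log2 value below the tissue's median probe set were left out (intensity limits: brain 96.1, liver 82.1, muscle 85.1), which left 19220 per tissue. Heat was tested within each tissue with limma 3.58.1 in R 4.3.3 with an intensity trend, two-sided, adjusted over all probe sets kept. Differences between tissues were tested in 1 fit to the 18 arrays, for probe sets that either tissue kept. A gene is represented by its probe set of highest mean intensity, and all probe sets of the members are reported. Steps were tested on simulated data.

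The rule for named genes takes all member probe sets, up to 4 genes with the smallest p per list and tissue, and the 6 genes most like the members. PMVK, MVK and INSIG2 were added after their values were seen. Alternatives were different scalings, an added 1 or 64 in place of 16, filtering at the 75th percentile or not at all, no intensity trend, the replicate number as a block, fits over other sets of arrays, averaging the probe sets of each gene, and leaving out each array. The members and lists were chosen with earlier results of these data known.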

Additional observations from a re-analysis of the deposited data

Results flagged for a closer look

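The change with heat differed between tissues by the interaction test (limma over 18 arrays, adjusted p below 0.05) for the following probe sets, each lower in liver. Against brain, the difference in log2 change was -1.79 for FDPS, -2.72 for SQLE, -1.03 for the third LSS probe set, -1.74 for NSDHL, and -2.09 and -1.73 for the HSD17B7 probe sets. Against muscle, it was -1.64 and -1.42 for the first and the third LSS probe set, -1.84 for NSDHL, and -1.84 and -1.73 for those of HSD17B7. The third LSS probe set lay under the intensity filter in muscle. It read 43.2 to 50.6 there, within the trp background readings of up to 60.6, so a fall in muscle could not have been seen and its -1.42 does not compare 2 measured changes. In heated liver it also read within the trp readings, so its -1.03 against brain does not measure the size of that difference. On the muscle controls NSDHL read 82.4 to 136, the first LSS probe set 69.6 to 185 and the second HSD17B7 probe set 132 to 179. For these a fall in muscle as large as in liver could not have been seen in full, which limits their differences against muscle.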

How the results depend on the processing

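Of the liver results, the falls of FDPS, SQLE, LSS, NSDHL and HSD17B7 kept direction and call in 80 of 80 alternative fits. Counts moved elsewhere, and the cause was not tested except where fewer arrays or probe sets entered a fit. Over all results and settings, 2172 values kept direction and call, 61 lost a call, 11 gained one, 31 reversed and 95 counts moved by over 1.5 times. In brain, member genes called lower went from 2 to 0 in the fit over 18 arrays and with probe sets averaged per gene, and all calls went from 2361 to 1482 in the fit over 18 arrays, which gave 3812 in liver and 1739 in muscle with 1 member gene lower. Muscle calls were 3 with quantile normalization, 2 with no filter and 52 with a filter at the 75th percentile. Between liver and muscle 1 member gene in place of 3 was called with the deposited scaling, equal medians, a pseudocount of 1, no filter, or the arrays of those tissues alone, where all calls were 39. With a pseudocount of 64, 593 probe sets differed between liver and brain and 176 between brain and muscle, and 27 of the latter on those arrays alone. With the 75th percentile filter, 9573, 8222 and 9070 probe sets differed between control tissues. Changes near 0 reversed: the second LSS probe set in liver with deposited scaling (0.00), and between brain and muscle the second HSD17B7 probe set with quantile scaling (0.02) or a pseudocount of 1 (0.01) and the second SQLE probe set with a pseudocount of 64 (-0.03).

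Same-numbered control and heat arrays of a tissue correlated at -0.45 to 0.37 in their deviations, and 1 of 9 pairs matched best with its own number. With so few arrays per group this check cannot decide whether the numbers pair the arrays. Whether same-numbered arrays of different tissues came from the same birds was not tested. The main fits had no term for the replicate number, so they treated all arrays as independent. With the replicate number as a block, calls were 505 in brain (1 member gene lower), 0 in muscle, 130 between liver and brain, 90 between liver and muscle and 8 between brain and muscle, and 1 member gene, HMGCS1, was called higher in liver.

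Leaving out 1 array at a time gave these ranges. Member genes called lower were 0 to 2 in brain, 2 to 4 between liver and brain and 1 to 4 between liver and muscle, those called higher were 0 to 1 in heated liver and 5 to 6 between control liver and muscle. All calls were 11 (without brain control 1) to 4434 (without brain heat 1) in brain, 499 (without liver control 3) to 2376 in liver, 0 to 8 in muscle, 122 to 635 between liver and brain, 126 to 256 between liver and muscle and 14 to 311 between brain and muscle. Reversals lay within -0.02 to 0.12 for HMGCS1 and -0.29 to 0.04 for the second SQLE probe set in brain, -0.12 to 0.12 for the second LSS probe set in liver and -0.09 to 0.16 against brain, -0.75 to 0.07 for HMGCS1 between liver and muscle, and -0.49 to 0.04 for FDPS between control liver and brain. Between brain and muscle they lay within -0.12 to 0.22 for the second SQLE probe set, -0.24 to 0.10 for NSDHL, and -0.05 to 0.64 and -0.14 to 0.10 for those of HSD17B7. Intensities near the trp readings limit CYP51A1 in each tissue and SQLE, LSS and NSDHL in muscle. In heated liver they limit the second SQLE and the third LSS probe set.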
